A study of Mus musculus with 6 samples.

Results

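Small heat shock proteins are the subject here: the 6 genes Hspb7, Hspb1, Hspb8, Cryab, Hspb2 and Hspb6, read by 13 of the 45101 probe sets of an Affymetrix GeneChip mouse genome array. They were taken by the gene symbol in the array annotation, out of 18193 genes that the annotation names. The family was selected on the contrast of transgenic against non-transgenic cultures, in which Hspb7 was among the genes with the smallest p, so the differences between these groups are given below as descriptions, with no test. The array measured RNA of primary aortic endothelial cell cultures from mice of strain C57. The transgenic mice carry human PPARG in its V290M form, which is dominant negative, under the CDH5 promoter, which is meant to limit it to endothelium, and the non-transgenic mice carry no transgene. Each culture pooled cells of 2 mice and received no treatment. In each group 5 cultures were grown, from 10 mice, and RNA of 3 of them was arrayed, so that n = 3 cultures in each group.

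Small heat shock proteins are chaperones that share an alpha-crystallin domain and assemble into oligomers. They hold unfolding proteins in a soluble state, without using ATP, until larger chaperones refold them or autophagy clears them. In heart, skeletal muscle and the vessel wall they bind filaments and filamins, and several are induced by heat shock factors. PPARG, the receptor that the transgene interferes with, is a ligand-activated transcription factor of lipid genes.

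Promoter windows of GRCm38.p6 from RefSeq, running from 250 bases before to 50 bases after a transcript start, were matched by symbol for 4 of the 6 genes, with 2 starts for Hspb6. They are shown because Hspb7, the gene that separated the groups, can be set beside members that did not. Capitals mark the paired heat shock half-sites GAANNTTC and the TATA box TATAAA. The search also covered TTCNNGAA, the CArG box, the MEF2 site and the PPAR response element (by its direct repeat), on both strands, and allowed matches to overlap.
Hspb7, chr4:141420529-141420828, plus strand: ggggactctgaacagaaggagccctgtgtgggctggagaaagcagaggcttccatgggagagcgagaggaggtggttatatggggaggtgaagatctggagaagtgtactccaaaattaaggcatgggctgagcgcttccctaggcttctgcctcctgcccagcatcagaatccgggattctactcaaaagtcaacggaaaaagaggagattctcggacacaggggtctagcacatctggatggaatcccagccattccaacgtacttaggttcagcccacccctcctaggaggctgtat
Hspb1, chr5:135887669-135887968, plus strand: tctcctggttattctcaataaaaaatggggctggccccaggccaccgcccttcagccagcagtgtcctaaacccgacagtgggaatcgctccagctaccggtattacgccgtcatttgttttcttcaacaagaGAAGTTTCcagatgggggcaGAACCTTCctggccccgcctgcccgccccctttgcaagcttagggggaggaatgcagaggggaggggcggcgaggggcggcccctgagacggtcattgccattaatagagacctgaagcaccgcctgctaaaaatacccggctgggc
Hspb8, chr5:116422815-116423114, minus strand: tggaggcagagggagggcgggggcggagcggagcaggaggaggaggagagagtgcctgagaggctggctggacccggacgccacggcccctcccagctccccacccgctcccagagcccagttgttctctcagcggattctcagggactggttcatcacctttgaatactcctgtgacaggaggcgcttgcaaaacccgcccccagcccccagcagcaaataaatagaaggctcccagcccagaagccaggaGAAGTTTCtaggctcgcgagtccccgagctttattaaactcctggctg
Hspb6 (second start), chr7:30553051-30553350, plus strand: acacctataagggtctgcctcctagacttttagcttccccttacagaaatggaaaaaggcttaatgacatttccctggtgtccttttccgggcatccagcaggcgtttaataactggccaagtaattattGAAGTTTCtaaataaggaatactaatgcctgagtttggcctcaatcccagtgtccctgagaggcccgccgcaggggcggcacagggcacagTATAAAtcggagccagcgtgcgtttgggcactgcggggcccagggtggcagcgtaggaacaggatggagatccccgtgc
The 8 letters GAAGTTTC stood in the windows of Hspb1, Hspb8 and the second start of Hspb6, 117 bases before the start in Hspb1, 120 before it in Hspb6 and from base 3 to base 10 after it in Hspb8. They stood, on either strand, in 1.21% of all 32851 promoter windows. The motif searched was GAANNTTC, and these 8 letters were picked out from its matches in these windows, so nothing is read from that share. Hspb1 held another match, GAACCTTC, 97 bases before the start. GAANNTTC was found in 7.86% of all windows, TTCNNGAA in 8.52%, TATAAA in 13.6%, the CArG box in 1.63%, the MEF2 site in 0.557% and the PPAR response element in 0.0396%. The Hspb7 window held no match to any of these, and neither did the first Hspb6 window, which is not printed. A match of letters is not a binding site, and a window without a match says nothing of the factor elsewhere in the gene.

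**Figure D1:**
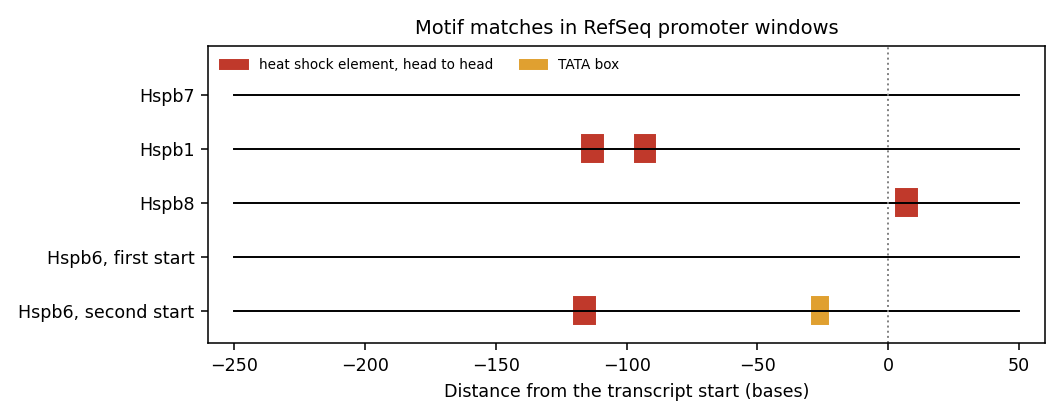
Motif matches in the promoter windows of 4 small heat shock protein genes, by distance from the transcript start in bases (x axis). Blocks mark GAANNTTC (red) and TATAAA (yellow); Hspb1 has 2 red blocks, Hspb8 and the second Hspb6 start have 1 each, and the Hspb7 line is empty.

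The authors scaled every array to the same trimmed mean, near 1500 units of signal. Transgenic culture 3 stood apart from its group, with a mean rank correlation across genes of 0.907 with the other transgenic arrays and 0.972 with the non-transgenic ones, so the members' differences are given with and without it, and those of the named genes of related lists also without it where limma then called them. That culture was singled out in these same data for its likeness to the non-transgenic arrays, so calls without it are descriptions. Named genes of those lists not then called, such as Bag2 and Gsn (limma adjusted p = 0.0568 and 0.113), lack that value below. The Gapdh controls, whose 3' over 5' signal reflects RNA integrity and amplification, gave a ratio of 1.20 to 1.44 on the transgenic and 1.51 to 1.71 on the non-transgenic arrays, without overlap. The same ratio of the beta-actin controls overlapped, at 1.40 to 2.21 on the transgenic and 1.83 to 2.17 on the non-transgenic arrays. Its highest value was that of transgenic culture 3. As to the labelled cell type, 10 of 25 endothelial markers lay above the level filter (a mean signal of 194), and Cdh5, the endothelial cadherin gene whose promoter drives the transgene, lay under it with log2 means of 6.09 in the transgenic and 6.97 in the non-transgenic cultures. All 16 fibroblast markers lay above the filter. Every difference below subtracts the non-transgenic from the transgenic mean of log2(signal + 16), a scale that understates the change of dim genes, and carries limma's moderated standard error (SE).

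Hspb7 separated the groups on each of its 3 probe sets, whereas the groups overlapped for the other 5 genes. Hspb7, known as the cardiovascular heat shock protein, is most abundant in heart and skeletal muscle and binds filamin C. Its brightest probe set, 1434927_at, read a signal of 6061, 4370 and 4323 in transgenic cultures 1 to 3, against 1912, 2123 and 2112 in the non-transgenic cultures. The lowest transgenic culture lay above the highest non-transgenic one, and the non-transgenic cultures were close together. The mean signal was 4918 ± 990.0 in the transgenic and 2049 ± 119 in the non-transgenic cultures (SD, n = 3 each). The difference was 1.24 ± 0.20 (SE), or 2.36-fold, and it was 1.32 ± 0.20 without transgenic culture 3.

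The other Hspb7 probe sets gave the same order of groups and a different picture of transgenic culture 3. Probe set 1421290_at read 3505, 3568 and 1715 in the transgenic cultures, against 1143, 1158 and 1438 in the non-transgenic ones. Probe set 1421289_at read 1422, 1853 and 666 in the transgenic cultures, against 394, 424 and 562 in the non-transgenic ones. On both, transgenic culture 3 was the lowest of its group and just above the highest non-transgenic culture. Relative to the non-transgenic mean it lay 0.46 and 0.54 log2 units higher on these probe sets and 1.07 higher on 1434927_at, where transgenic culture 2 lay 1.09 higher. The group differences were 1.16 ± 0.31 and 1.38 ± 0.38 (SE, n = 3 cultures per group), and 1.50 ± 0.20 and 1.80 ± 0.26 without transgenic culture 3. The size of the Hspb7 difference in culture 3 thus depended on the probe set, and its direction did not.

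**Figure D2:**
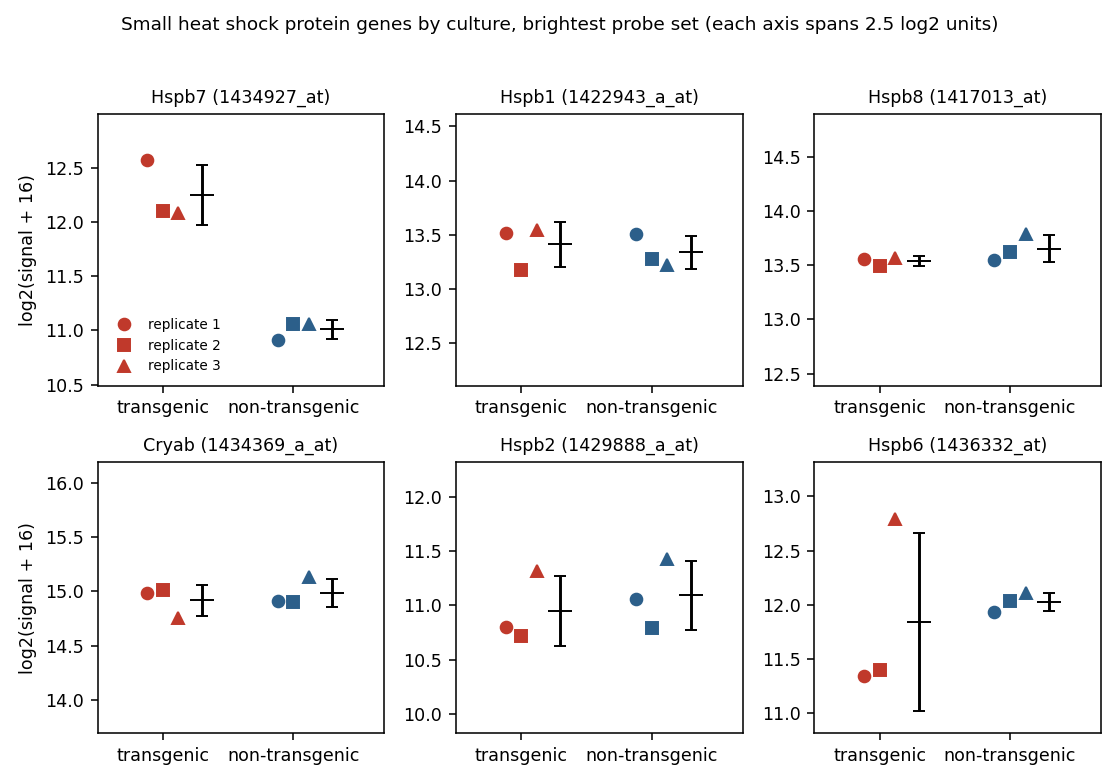
Level of each small heat shock protein gene on its brightest probe set, as log2(signal + 16) (y axis), in 3 transgenic (red) and 3 non-transgenic (blue) cultures. Marker shapes give the replicate number and black bars the mean ± SD; the groups are apart for Hspb7 alone of the 6 genes, and Hspb6 has its highest value, 12.79, in transgenic culture 3.

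Over all 11208 genes tested, limma called 0 at a Benjamini-Hochberg adjusted p of 0.05 (0%), and 0 of the 6 small heat shock protein genes. Before adjustment 1288 genes (11.5%) had a p under 0.05. All 3 transgenic cultures lay above all non-transgenic ones for 9.39% of the genes, and this was so for 1 of the 6, Hspb7, the gene for which the list was made, so nothing is read from that count. Of the 6, 2 had a difference above 0, against 47.5% of all genes. The median difference was -0.088 over the 6 and -0.021 over all genes tested. With each array centred on its median the median of all genes was 0.247 and all 6 lay above 0, so the signs of Hspb8, Cryab, Hspb2 and Hspb6 depend on the scaling, and those of Hspb7 and Hspb1 do not. Without transgenic culture 3 limma called 1649 of the 11208 genes (14.7%), 6.88% of all as higher and 7.83% as lower.

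Hspb1 and Hspb8 varied little between the cultures. Hspb1, called Hsp25 in the mouse, guards actin filaments and is phosphorylated downstream of p38 kinases. It read 11742, 9225 and 11932 on 1422943_a_at in the transgenic cultures, against 11661, 9916 and 9539 in the non-transgenic ones. The highest and lowest values were both transgenic. The difference was 0.08 ± 0.15 (SE), with limma's 95% interval from -0.27 to 0.43, and 0.01 ± 0.16 without transgenic culture 3. Its other probe set, 1425964_x_at, gave 0.18 ± 0.17.

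Hspb8 partners the cochaperone Bag3 in handing damaged proteins to autophagy. Its brightest probe set, 1417013_at, read 12025, 11463 and 12113 in the transgenic cultures, against 11909, 12565 and 14136 in the non-transgenic ones. The groups overlapped, and all 6 values lay within 0.30 log2 units. The difference was -0.11 ± 0.12 (SE), with a 95% interval from -0.38 to 0.155, and -0.13 ± 0.12 without transgenic culture 3. The other probe sets, 1417014_at and 1456434_x_at, differed by -0.03 ± 0.24 and -0.14 ± 0.26. The spread of Hspb8 within groups, an SD of 0.094, was larger than that of only 4.2% of the genes tested.

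Cryab encodes alpha B-crystallin, a chaperone of the lens and of muscle that protects the filament protein desmin. Probe set 1434369_a_at read 32532, 33050 and 27591 in the transgenic cultures, against 30723, 30666 and 35886 in the non-transgenic ones. The lowest value was that of transgenic culture 3 and the highest that of non-transgenic culture 3. The difference was -0.06 ± 0.11 (SE), with a 95% interval from -0.32 to 0.19, and 0.02 ± 0.10 without transgenic culture 3. On 1416455_a_at it was 0.04 ± 0.15. The remaining probe set, 1435837_at, was dim, with signals of 72.6 to 80.7 in the transgenic and 59.9 to 92.6 in the non-transgenic cultures, and lay under the filter on level.

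Hspb2 is the genomic neighbour of Cryab in the RefSeq gene table and is known in muscle as a binding protein of the myotonic dystrophy kinase. It is read by 1 probe set, 1429888_a_at, at 1770, 1666 and 2540 in the transgenic cultures, against 2118, 1757 and 2732 in the non-transgenic ones. Culture 3 was the highest of each group. The difference was -0.15 ± 0.26 (SE, 95% interval -0.74 to 0.45), and -0.33 ± 0.23 without transgenic culture 3. The neighbours were not ordered alike across the transgenic cultures: culture 3 held the highest Hspb2 value of that group and the lowest Cryab value.

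Hspb6 varied most within a group. Known as Hsp20, it is phosphorylated by cyclic nucleotide-dependent kinases during smooth muscle relaxation. Its single probe set, 1436332_at, read 2575, 2693 and 7079 in the transgenic cultures, against 3908, 4182 and 4396 in the non-transgenic ones. Transgenic cultures 1 and 2 lay below every non-transgenic culture, and transgenic culture 3 above all of them. The difference over the 3 cultures was -0.18 ± 0.37 (SE, 95% interval -1.04 to 0.68). Without culture 3 it was -0.66 ± 0.16, and culture 3 itself lay 0.77 above the non-transgenic mean. The SD within groups, 0.584, exceeded that of 85.9% of the genes tested.

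**Figure D3:**
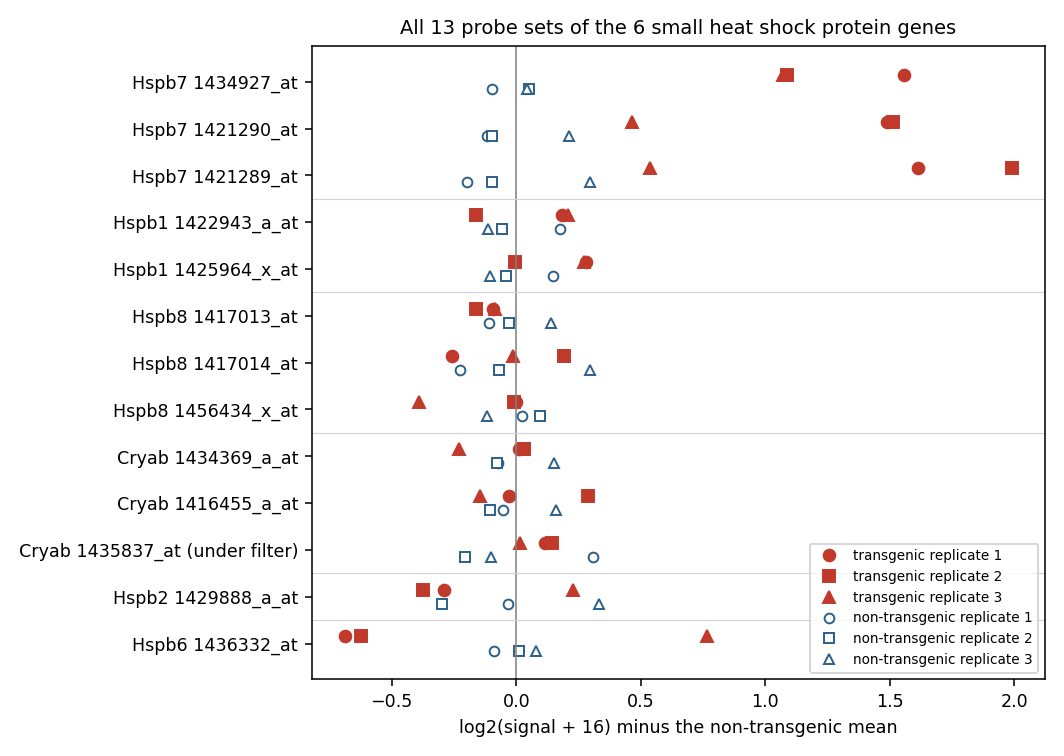
All 13 probe sets of the 6 genes, each row showing the 6 cultures as log2(signal + 16) minus the non-transgenic mean (x axis). Filled red markers are transgenic and open blue markers non-transgenic cultures. Transgenic values lie to the right of all non-transgenic ones on the 3 Hspb7 rows. On 1421290_at and 1421289_at transgenic culture 3, at 0.46 and 0.54, is near the highest non-transgenic culture, at 0.21 and 0.30. On the Hspb6 row transgenic culture 3 lies at 0.77 while transgenic cultures 1 and 2 lie at -0.69 and -0.62.

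The 4 other family members that the list left out, Hspb3, Hspb9, Cryaa and Odf1, all lay under the filter on level. Hspb9, a testis gene, read 121, 95.7 and 102 in the transgenic cultures, against 61.7, 68.8 and 5.7 in the non-transgenic ones. Hspb3, a muscle partner of Hspb2, read 122, 121 and 32.6 in the transgenic cultures, against 104, 64.8 and 91.8 in the non-transgenic ones. Cryaa, the alpha A-crystallin of the lens, read at most 58.6 in the transgenic and 25.2 in the non-transgenic cultures. The brightest probe set of Odf1, a sperm tail gene, read 62.7 to 103 in the transgenic and 21.1 to 136 in the non-transgenic cultures. At such signals the values are not told apart from background here, since detection calls were not used.

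Chaperones induced by heat shock factors centred near 0 as a list. Of 17 such genes tested, 10 lay higher and 7 lower by point estimate, the median difference was 0.032, and limma called 0. Hspa1b, an inducible Hsp70, differed by 0.03 ± 0.18 (SE, n = 3 cultures per group), Hspa8, the constitutive Hsc70, by -0.05 ± 0.11, the Hsp110 gene Hsph1 by -0.08 ± 0.12 and Hsp90aa1 by 0.03 ± 0.23. Dnajb1, the Hsp40 that supplies clients to Hsp70, was at 12.70, 12.98 and 12.57 in the transgenic cultures, against 12.35, 12.40 and 12.51 in the non-transgenic ones, on the log2 scale. It was the 1 gene of the 17 with no overlap, against 9.39% of all genes in that direction, with a difference of 0.33 ± 0.16 (limma adjusted p = 0.449). Stip1, which links Hsp70 to Hsp90, differed by 0.53 ± 0.23 (limma adjusted p = 0.437), and by 0.75 without transgenic culture 3 (limma adjusted p = 0.0306). With each array centred on its median all 17 lay above 0, with a median of 0.301, and the median of all genes tested moved to 0.247. The share of all genes above 0 under that centring was not counted, so nothing is read from the 17. Of the heat shock factors, Hsf2 lay under the filter on level, at 6.60, 6.83 and 6.45 in the transgenic cultures, against 8.26, 7.57 and 8.08 in the non-transgenic ones. Hsf4 lay under it too, with means of 6.77 in the transgenic and 7.24 in the non-transgenic cultures. Hsbp1, which binds heat shock factor, differed by 0.29 ± 0.16. Hsf1 had no probe set with a single gene name and was not analysed here.

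Among the BAG cochaperones and the machinery of chaperone-assisted autophagy, 6 of 12 tested genes lay higher and 6 lower, with a median of -0.018 and 0 called. Bag3, the scaffold that holds Hspb8 and Hsp70, was at 12.21, 12.47 and 12.76 in the transgenic cultures, against 12.76, 12.53 and 12.46 in the non-transgenic ones, and differed by -0.10 ± 0.18. The ubiquitin ligase Stub1 differed by 0.08 ± 0.12, the autophagy receptor Sqstm1 by -0.25 ± 0.14 (-0.38 without transgenic culture 3, limma adjusted p = 0.0479) and the Bag3 partner Synpo2 by -0.16 ± 0.35, its other probe set above the filter lying at -1.32. Bag2, an inhibitor of Stub1, lay higher in all 3 transgenic cultures, at 10.40, 9.96 and 9.87 against 9.30, 9.49 and 9.12 in the non-transgenic ones, by 0.77 ± 0.26 (limma adjusted p = 0.428). Bag4, a silencer of death domain receptors, lay lower in all 3 transgenic cultures, at 9.54, 9.76 and 9.71 against 10.50, 10.22 and 10.43 in the non-transgenic ones, by -0.71 ± 0.22 (limma adjusted p = 0.428), while the smallest difference among its 3 probe sets was -0.05.

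Of the kinases known to act on small heat shock proteins, or to activate those that do, 8 of 13 lay higher and 5 lower, with a median of 0.066 and 0 called. Prkg1, the cyclic GMP-dependent kinase that phosphorylates Hspb6 in smooth muscle, was at 11.47, 11.40 and 12.21 in the transgenic cultures, against 12.59, 12.80 and 12.47 in the non-transgenic ones. The groups did not overlap, as for 6.72% of all genes in that direction, and the difference was -0.93 ± 0.24 (limma adjusted p = 0.428), its other probe set giving -1.05. Without transgenic culture 3 it was -1.18 (limma adjusted p = 0.00658). Mapk11, the beta form of p38, was at 10.61, 10.14 and 10.01 in the transgenic cultures, against 9.59, 9.36 and 9.12 in the non-transgenic ones, a difference of 0.90 ± 0.27 (limma adjusted p = 0.428), and 1.02 without transgenic culture 3 (limma adjusted p = 0.0404). Mapkapk2, the kinase of Hspb1 downstream of p38, differed by -0.13 ± 0.28. In all, 3 of the 13 kinases lay higher without overlap, against 9.39% of all genes (Mapk11, Mapk13 and Map2k3, the last 2 named after their values were seen) and 1, Prkg1, lower. With each array centred on its median, 11 of the 13 kinases and 10 of the 12 genes of the BAG list lay above 0, so the balance of directions in both depends on the scaling. The median of all genes tested was then 0.247.

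Filament and filamin genes, clients of the family, had 3 of 8 members tested, with differences from -0.05 to 0.20 on their brightest probe sets. Flnc, the filamin that Hspb7 binds, was at 10.32, 10.31 and 10.43 in the transgenic cultures, against 10.04, 10.46 and 9.96 in the non-transgenic ones, a difference of 0.20 ± 0.23. Its other probe set gave 0.55. Flna differed by 0.13 ± 0.13 and Vim, the filament protein vimentin, by -0.05 ± 0.13. Des, which encodes desmin, lay under the filter, at 5.14, 8.03 and 8.35 in the transgenic cultures, against 5.55, 4.46 and 4.83 in the non-transgenic ones.

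Muscle genes were examined because small heat shock proteins are abundant in muscle. Of 5 muscle transcription factors tested, 4 lay lower, with a median of -0.595 and 0 called. The median was -0.333 without transgenic culture 1, -0.394 without transgenic culture 2 and -0.964 without transgenic culture 3. In that last fit limma called 3 of the 5 as lower, against 7.83% of all genes, on a list chosen with earlier results known. Mef2c differed by -0.92 ± 0.31 and Mef2a by -0.68 ± 0.28 (limma adjusted p = 0.428 each), and by -1.16 and -0.96 without transgenic culture 3 (limma adjusted p = 0.029 and 0.0221). Their values in transgenic culture 3, 11.06 and 12.09, lay within the non-transgenic ranges of 11.01 to 11.76 and 11.92 to 12.36. Srf and its coactivator Myocd differed by -0.05 ± 0.46 and 0.53 ± 0.49. Of 15 smooth muscle markers 9 were tested, 3 lay higher and 6 lower, and the median was -0.046. Acta2 differed by -0.05 ± 0.24, Tagln by 0.33 ± 0.50, Itga8 by -0.87 ± 0.37 (-1.25 without transgenic culture 3, limma adjusted p = 0.0234) and Tpm2 by 0.28 ± 0.16, its 4 probe sets running from 0.27 to 1.25, and Myh11 lay under the filter. The summed signal of the 15 markers was 75626 to 97651 in the transgenic and 72677 to 91442 in the non-transgenic cultures.

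Of 20 striated muscle markers, 4 to 5 per transgenic and 4 to 7 per non-transgenic culture lay above the filter, none being listed at 0, and the summed signal was 3936 to 6761 in the transgenic and 4936 to 7775 in the non-transgenic cultures. Tnnc1, the slow and cardiac troponin C, differed by 0.85 ± 0.33, whereas Tnnt2, the cardiac troponin T, was at 7.85, 8.54 and 11.84 in the transgenic cultures, against 10.92, 11.71 and 12.16 in the non-transgenic ones. Without transgenic culture 3 they differed by 1.18 and -3.40 (limma adjusted p = 0.0179 and 0.00406). The part of muscle cells in any difference was not tested. In such bulk cultures fewer cells of a type and less RNA per cell cannot be told apart.

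**Figure D4:**
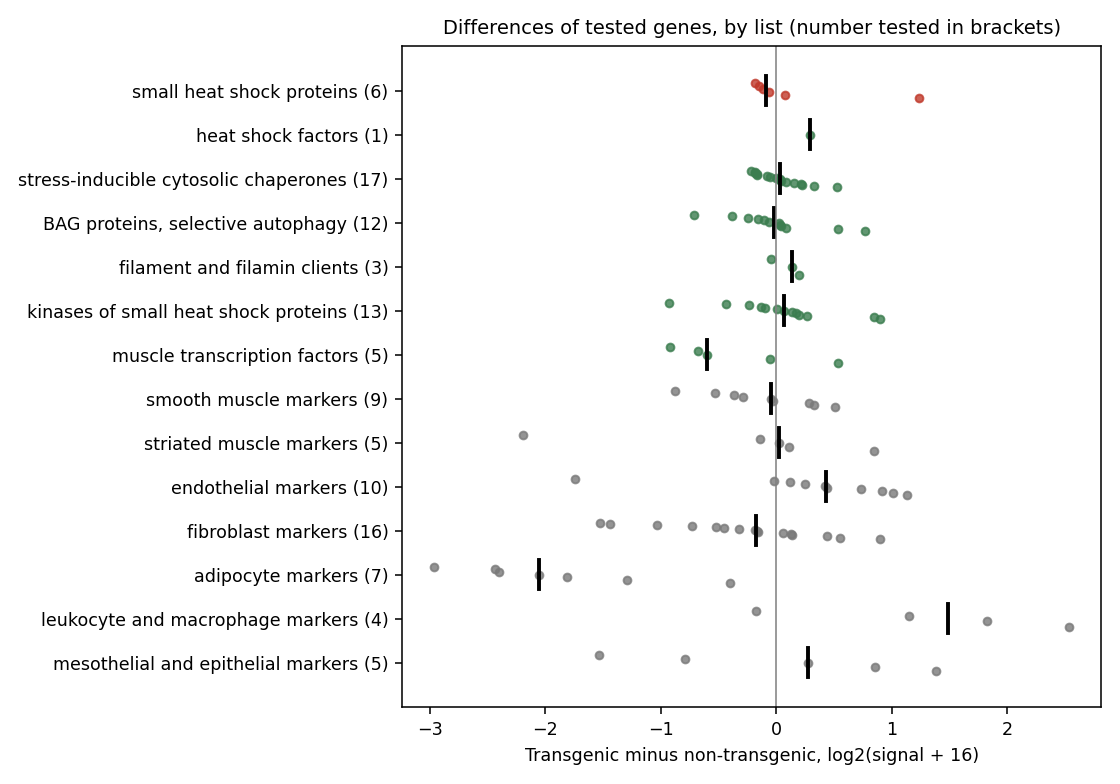
Difference of each tested gene between transgenic and non-transgenic cultures, in log2(signal + 16) units (x axis, positive where transgenic is higher), for the small heat shock protein genes (red), 6 related lists with a tested gene (green) and 7 lists of cell type markers (grey). Black bars are list medians and brackets give the number of genes tested; Hspb7 stands at 1.24, to the right of the other 5 genes of its family.

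The tested genes whose profile over the 6 arrays lay closest to that of Hspb7, on its brightest probe set, were Aim2, Mapk11, H2-Ab1, Cenpl and Smyd5. Closeness was the root mean square distance between centred log2 values, which was 0.243 to 0.258 for these genes, against a median of 0.708 over all genes. Close genes were not sought for the other Hspb7 probe sets, on which transgenic culture 3 lay nearer the non-transgenic cultures. Aim2, a sensor of cytosolic DNA, was at 9.27, 8.59 and 8.22 in the transgenic cultures, against 7.81, 7.80 and 7.79 in the non-transgenic ones. H2-Ab1, a chain of MHC class II, was at 9.08, 8.70 and 8.71 in the transgenic cultures, against 7.74, 7.72 and 8.34 in the non-transgenic ones. For Smyd5, 1 of 3 probe sets lay lower in the transgenic cultures, at -0.70. For Cryab the closest were Msrb3, Gtf2a2, Pfn2, Pebp1 and Cnn3, at distances of 0.027 to 0.031 against a median of 0.329. These were, like Cryab, genes with little difference between any cultures.

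Leukocyte and macrophage markers had 3 of 4 tested genes higher by point estimate and 0 called, with a median of 1.489, and 0.992 without transgenic culture 2. Of 17 on the array, 5, 11 and 4 lay above the filter in transgenic cultures 1 to 3, against 5, 4 and 5 in the non-transgenic cultures, and none was listed at 0. Csf1r differed by 1.83 ± 0.26 and Cd53 by 2.54 ± 1.25 (limma adjusted p = 0.428 and 0.451), while Cd14, named after its value was seen, differed by -0.17 ± 0.40. Without transgenic culture 3 Csf1r was at 1.88 and Cd53 at 4.05 (limma adjusted p = 0.00718 and 0.0104). Their summed signal was 11717, 22680 and 4948 in the transgenic cultures, against 5005, 3403 and 4074 in the non-transgenic ones. Adipocyte markers had a median difference of -2.055 over 7 tested genes, with Aqp7 at -2.40 ± 0.76 and Slc2a4 at -2.96 ± 0.99 (-3.14 and -3.79 without transgenic culture 3, limma adjusted p = 0.0147 and 0.0274). That median was -0.921 without non-transgenic culture 1 and -1.256 without transgenic culture 2. It was 0.603 when the Gapdh ratio entered the model and -1.23, with all 7 genes lower, when the beta-actin ratio did. The summed signal of the adipocyte markers was 21074 to 37250 in the transgenic and 39805 to 74734 in the non-transgenic cultures. Endothelial markers had a median of 0.433, with 8 of 10 tested genes higher, led by Rasip1 at 1.13 ± 0.44 and Flt1 at 1.01 ± 0.45 (SE, n = 3 cultures per group), and 0 called. Ramp2, named after its value was seen, lay lower at -1.74. Without transgenic culture 3 Rasip1 and Flt1 were at 1.55 and 1.49 (limma adjusted p = 0.0241 and 0.0203) and Ramp2 at -2.82 (limma adjusted p = 0.0243). With 1 array left out the endothelial median ran from 0.312 (without non-transgenic culture 3) to 0.716 (without non-transgenic culture 1). Fibroblast markers had a median of -0.176 over 16 genes, 6 higher and 10 lower. Thy1 was at 0.90 ± 0.26 (1.10 without transgenic culture 3, limma adjusted p = 0.0217) and Gsn at -0.32 ± 0.10. Lum and Dcn, named after their values were seen, lay lower at -1.53 and -1.44. Without transgenic culture 3 limma called 2 of the 16 as higher and 3 as lower, against 6.88% and 7.83% of all genes. Mesothelial and epithelial markers had a median of 0.274 over 5 genes, with Wt1 at -0.79 ± 0.40 and Krt7 at 0.86 ± 0.44 (1.29 without transgenic culture 3, limma adjusted p = 0.0366). The last median turned to -0.061 without transgenic culture 2 and -0.267 without non-transgenic culture 2. It was 0.595 without transgenic culture 1, 0.437 without non-transgenic culture 1 and 0.651 without non-transgenic culture 3. The part of these cells, and of the Gapdh ratio, in the Hspb7 difference was not tested. With that ratio as a covariate the Hspb7 difference was 1.21. The ratios of the groups did not overlap, so this fit cannot tell ratio and group apart.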

How the data were processed

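The values the authors deposited are MAS5 intensities of each probe set on each array, as the submitters' processing notes name the tool without a version. They were linear, from 0.1 to 67821.8, and the authors' scaling was kept. About 50 ng of total RNA was amplified in 2 steps before hybridization, per the labels' protocols. Gene names came from the array annotation, with symbols updated by gene identifier from RefSeq (GRCm38.p6) for 34741 of 34945 probe sets with 1 gene. Promoter windows came from RefSeq and were used for sequence alone.

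Values were computed as log2(intensity + 16). The brightest probe set over the 6 arrays stood for its gene. Testing covered the 11208 genes at or above a mean log2 value of 7.717, which is the median over probe sets other than array controls. Groups were compared two-sided with limma 3.58.1 in R 4.3.3 (lmFit, and eBayes with a trend) and Benjamini-Hochberg adjustment at 0.05. Values of single probe sets came from the same model over all probe sets. The procedure was tested on simulated data. No 2 arrays shared more than 0.142% of values. The number of arrays limits the precision.

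The members and the gene lists were chosen with earlier results of these data known. Named were all members and family genes, fixed genes of each list, the 2 tested genes of a list with the smallest p, and the 5 genes closest in profile to Hspb7 and to Cryab. Tried as alternatives were changes of the pseudocount, the filter, the scaling and the variance prior, array weights, other ways to combine probe sets, a replicate block, control ratios as covariates, and each array left out.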

Additional observations from a re-analysis of the deposited data

How the results depend on the processing

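The Hspb7 difference kept its sign in all 18 alternatives run, between 1.08 and 1.51, and between 1.08 and 1.32 with 1 array left out. It was 1.51 with each array centred on its median and 1.48 with array weights. Hspb1 also kept its sign, between 0.01 and 0.47. Cryab, Hspb2, Hspb6 and Hspb8 had the opposite sign in 6, 3, 5 and 1 of 18 alternatives, so their direction is not settled either. Hspb6 was at 0.54 once the Gapdh ratio was in the fit, and between -0.66 (without transgenic replicate 3) and 0.07 (without transgenic replicate 1) with 1 array left out.

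Centring each array on its median moved the median of all genes tested to 0.247, against -0.021, and then all 6 members lay above 0 with a median of 0.18, below that of all genes. The member median was 0.298 with the Gapdh ratio as a covariate. Under the same centring the list medians were 0.251 for BAG proteins, 0.093 for fibroblast markers, 0.402 for filament clients, 0.558 for heat shock factors (1 gene), 0.335 for kinases, 0.223 for smooth muscle, 0.301 for chaperones and 0.293 for striated muscle. With the Gapdh ratio they were 0.603 for adipocyte markers, 0.255 for BAG proteins, 0.781 for endothelial and 0.187 for fibroblast markers, -0.037 for heat shock factors, 0.207 for kinases and -0.182 for chaperones, which were at -0.098 with the beta-actin ratio. With array weights, endothelial markers were at 0.761 and muscle transcription factors at -1.067. Without a filter, heat shock factors were at -0.467 (3 genes) and leukocyte markers at 0.52. With the filter at the 75th percentile, endothelial markers were at 0.116 (5 genes) and striated muscle at -2.189 (1 gene). Quantile normalization put striated muscle at 0.287. With 1 array left out, medians ran from -0.205 to 0.043 for BAG proteins, from -0.098 to 0.081 for kinases, from -0.251 to 0.065 for smooth muscle, -0.141 to 0.174 for striated muscle and -0.226 to -0.101 for fibroblast markers, and from -0.067 to 0.073 for chaperones. Centring raised every difference by the same amount. It did so because the median signal was lower on the transgenic (173 to 186) than on the non-transgenic arrays (220 to 223). The cause of that gap, and of the other shifts, was not tested.

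The count of called genes was 0 in 17 of 19 alternatives. It was 1649 without transgenic replicate 3, the range over arrays left out being 0 to 1649, and 5504 with array weights, where transgenic replicate 1 and non-transgenic replicate 2 had weights of 5.24 and 4.65 and the other arrays 0.177 to 1.20. With the replicate number as a block 0 genes were called, and same-numbered arrays did not deviate together (correlations of 0.042, -0.278 and -0.034). Nothing in the labels says that the numbers pair cultures, but such correlations cannot exclude a pairing.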
